A study of Mus musculus with 10 samples.

Results

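The miRNAs described here are 10 mature miRNAs assigned to the strand opposite to Rtl1 in the imprinted region of mouse chromosome 12 (12qF1). They are miR-127-3p, miR-127-5p, miR-136-3p, miR-136-5p, miR-431-5p, miR-433-3p, miR-434-3p, miR-434-5p, miR-337-3p and miR-337-5p. They were chosen by name from a deposited table of small RNA read counts, where each row is a miRNA name followed by the bases added at its 3′ end, and all rows of a name were summed. The 10 names stand for 370 of 19414 rows and for 10 of 1432 miRNA names. All 10 passed the filter on low counts, which left 557 miRNAs for testing.

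Cortex of E13.5 mouse embryos gave the libraries, from a Dicer line and a DGCR8 line that the submitters call conditional knock-outs. The 5 groups of 2 mice each were the Dicer knock-out (Dicer KO), the Dicer wild type (Dicer WT), the DGCR8 knock-out (DGCR8 KO), the DGCR8 heterozygote (DGCR8 HET) and the DGCR8 wild type (DGCR8 WT). Nothing in the sources used here gives the strain, the agent that removes the gene or the share of cortical cells that lost it. Each library is whole cortex, so it mixes all cells of the tissue. Dicer and Dgcr8 mRNA are not measured in a table of miRNAs, so the genotype labels could not be checked against the targeted genes.

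As background, miRNAs are cut from hairpins in long transcripts, first in the nucleus by Drosha with DGCR8 and then in the cytoplasm by Dicer, and a miRNA finds its targets mainly through its seed, bases 2 to 8. Rtl1 is a gene derived from a retrotransposon that is expressed from the paternal chromosome and is needed for fetal capillaries in the mouse placenta. A maternally expressed transcript of the opposite strand carries hairpins whose miRNAs pair without mismatch to Rtl1 mRNA, and in the mouse several of them direct its cleavage. The same maternal strand carries a larger distal group of miRNA hairpins that is expressed in the brain.

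The mature sequences are shown because the match to Rtl1 rests on them. All 10 were found in RefSeq's miRNA annotation of GRCm38.p6, and the seed is in capitals, written 5′ to 3′.
miR-431-5p: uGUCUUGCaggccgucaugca
miR-433-3p: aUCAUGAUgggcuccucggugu
miR-127-5p: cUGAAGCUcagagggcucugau
miR-127-3p: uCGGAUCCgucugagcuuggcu
miR-434-5p: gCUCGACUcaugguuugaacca
miR-434-3p: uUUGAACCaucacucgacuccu
miR-136-5p: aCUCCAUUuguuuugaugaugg
miR-136-3p: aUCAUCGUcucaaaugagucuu
miR-337-5p: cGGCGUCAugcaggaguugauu
miR-337-3p: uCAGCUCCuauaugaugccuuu
No 2 of the 10 share a seed, and no other mature miRNA of the same table has any of these seeds. The 8 miRNAs of miR-431, miR-433, miR-127, miR-434 and miR-136 each had 1 perfect complement in the Rtl1 transcript (6358 bases, GENCODE M21). miR-337-5p and miR-337-3p had 0.

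The positions of the hairpins gave the same division. In GRCm38, Rtl1 lies on the minus strand at chr12:109589193-109600330, and its coding sequence, within a single exon, at chr12:109590172-109595403. On the plus strand, antisense within that coding exon, lie Mir431 (chr12:109590447-109590537), Mir433 (chr12:109591715-109591838), Mir127 (chr12:109592846-109592915), Mir434 (chr12:109594506-109594599) and Mir136 (chr12:109595327-109595388). Mir337 (chr12:109585789-109585885) lies on the plus strand too, but 3308 bases beyond the 3′ end of Rtl1. The name "antisense Rtl1" therefore fits 8 of the 10 miRNAs by position, while miR-337-5p and miR-337-3p are neighbours of Rtl1 in the same imprinted region. On the strand of Rtl1 itself, Mir3071 overlaps Mir136 and Mir3544 overlaps Mir337. miR-3071-3p, the mature miRNA opposite to miR-136-5p, differs by at least 10 bases from every stretch of the Mir136 hairpin, so the 2 can be told apart by sequence.

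**Figure D1:**
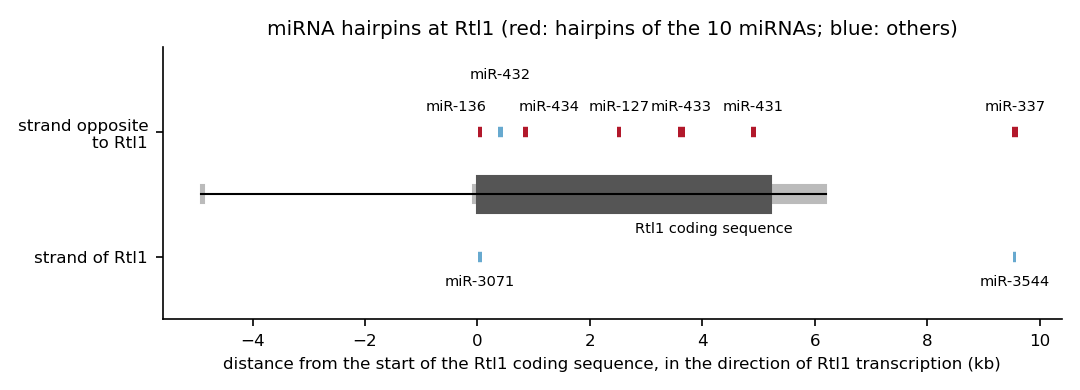
Position of miRNA hairpins around Rtl1, in kilobases from the start of its coding sequence and in the direction of Rtl1 transcription. The dark box is the coding sequence, the grey boxes are other exonic sequence, red marks are the 6 hairpins of the 10 miRNAs and blue marks are other hairpins. Of the red marks, 5 lie opposite to the coding sequence, while miR-337 lies 9.57 kb from its start and outside the gene.

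The libraries held 800623 to 4486774 reads assigned to miRNAs, and the mean of Dicer WT was 4.76 times that of Dicer KO. The neural miRNAs miR-9-5p, miR-124-3p and miR-92b-3p, which check the labelled tissue, were present in all libraries and took 12.7% and 10.8% of miRNA reads in Dicer KO, against 20.4% and 22.4% in Dicer WT. They took 13.3% and 13.2% in DGCR8 KO, against 18.4% and 20.02% in DGCR8 WT. These sums hide miR-124-3p, which before scaling stood higher in both libraries of each knock-out than in its wild type. Markers of other cells were present in every genotype, and 0 of the markers in the table were at 0 in all libraries. The column names of the DGCR8 libraries carry a number that differs from the sample descriptions. They were matched on line and index number, and every DGCR8 value rests on that match.

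Together the 10 miRNAs took a larger share of miRNA reads in both knock-outs than in the wild type of the same line. They took 3.27% and 3.87% in Dicer KO, against 1.90% and 1.42% in Dicer WT. They took 4.46% and 4.15% in DGCR8 KO and 2.34% and 2.12% in DGCR8 HET, against 2.16% and 1.80% in DGCR8 WT. Both libraries of each knock-out stood above both of its wild type, and the ratio of the means was 2.15 for Dicer KO over Dicer WT and 2.18 for DGCR8 KO over DGCR8 WT. With 2 libraries a side, the smallest p of an exact two-sided permutation test is 0.333, and the summed shares are given as a description, with no test. A share also rises where reads of other miRNAs are lost. In these bulk libraries, more cells of a type, more of a miRNA per cell and a loss of other miRNAs cannot be told apart.

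The 10 miRNAs spanned a wide range of levels. Levels are given as CPM, the reads of a miRNA per 1000000 miRNA reads of its library after TMM scaling, and all 10 miRNAs are 21 or 22 bases long. By mean CPM over the 10 libraries, miR-127-3p ranked 10 among the 557 tested miRNAs, at 17079 CPM, and miR-434-3p ranked 26, at 8113 CPM. These 2 miRNAs made up nearly all reads of the group, with miR-127-3p at 55.1% to 75.7% and miR-434-3p at 20.9% to 38.4% of them in a library. In the middle range, miR-433-3p ranked 110, miR-431-5p 119, miR-434-5p 176, miR-136-3p 188 and miR-127-5p 215. The least abundant were miR-136-5p at rank 390, miR-337-5p at rank 435 and miR-337-3p at rank 457, with means of 12.2, 8.30 and 6.85 CPM. The filter asked for 4.18 CPM, before scaling, in at least 2 libraries. miR-337-3p reached it in 0 of 2 DGCR8 WT libraries and in 1 of 2 Dicer WT libraries, and miR-337-5p reached it in 1 of 2 DGCR8 WT and 1 of 2 DGCR8 HET libraries. miR-136-5p reached it in 1 of 2 Dicer WT libraries. Each of these miRNAs reached it in both libraries of more than 1 group, so none passed through a single group. Such a filter still keeps a low miRNA more readily where it is high in some group, so counts over the 10 describe them and support nothing further.

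**Figure D2:**
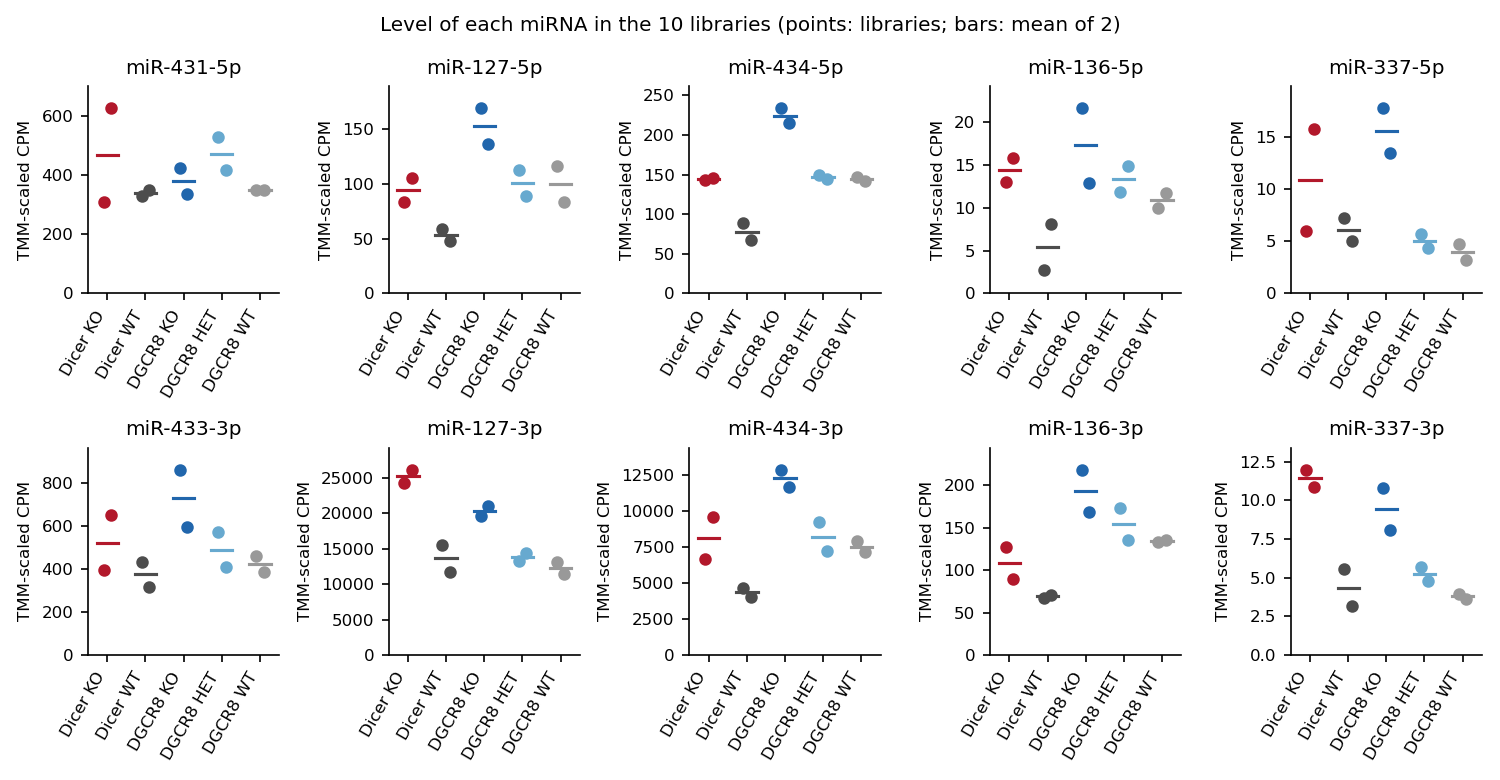
Level of each of the 10 miRNAs, in CPM (a linear axis from 0, different for each miRNA), in the 5 groups. Points are the 2 libraries of a group and the horizontal bar is their mean. The DGCR8 KO and Dicer KO points of miR-127-3p, at 19670.5 to 26183 CPM, lie above all of its DGCR8 HET, DGCR8 WT and Dicer WT points.

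The first comparison set Dicer KO against Dicer WT to see how these miRNAs stood when the cytoplasmic processing step was deleted. On the scale of the remaining miRNAs, 5 of the 10 rose and 0 fell: miR-127-3p, miR-127-5p, miR-434-3p, miR-434-5p and miR-337-3p. Of all 557 miRNAs, 30.9% were called, 14.9% as higher and 16% as lower. All 10 had a fold change above 0, with a median log2 fold change of 0.85 beside -0.00984 over all tested miRNAs. But scaled to 8 vessel and blood miRNAs, an alternative chosen after seeing the data, all 10 lay below 0. Their median was then -0.58, beside -1.44 over all tested miRNAs. Calls rest on edgeR's quasi-likelihood test with Benjamini-Hochberg adjustment over the 557 miRNAs, at an adjusted p below 0.05, and log2 fold changes are given ± SE with n = 2 libraries per group.

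miR-127-3p, which targets BCL6 in human cells, stood at 24307 and 26183 CPM in Dicer KO, against 15566 and 11721 CPM in Dicer WT. The groups did not overlap, and the miRNA rose by 0.89 ± 0.15 (edgeR adjusted p = 0.00282). The other arm of its hairpin, miR-127-5p, stood at 83.8 and 105 CPM in Dicer KO, against 59.2 and 47.9 CPM in Dicer WT, again with no overlap (0.82 ± 0.26, edgeR adjusted p = 0.0380). In reads without an added base this arm was not called (0.75, adjusted p = 0.153), and without the filter on low counts it was not called either (0.64, adjusted p = 0.147). The call was also lost without Dicer KO replicate 2, either Dicer WT library or either DGCR8 KO library (adjusted p = 0.0505 to 0.18). A fit of the Dicer line alone did not call it (0.80, adjusted p = 0.0959).

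miR-434-3p, the second most abundant of the 10, stood at 6713 and 9582 CPM in Dicer KO, against 4682 and 4063 CPM in Dicer WT. The groups did not overlap (0.90 ± 0.19, edgeR adjusted p = 0.00763). miR-434-5p, from the same hairpin, stood at 144 and 145 CPM in Dicer KO, against 88.5 and 67.8 CPM in Dicer WT (0.89 ± 0.18, edgeR adjusted p = 0.00676). The 2 arms of miR-434 thus moved by nearly the same amount, and without Dicer WT replicate 2 both calls were lost (0.80, adjusted p = 0.0540 for miR-434-3p, and 0.71, adjusted p = 0.0585 for miR-434-5p). The miR-434-5p call was also lost without the filter on low counts (0.71, adjusted p = 0.066) and in a fit of the Dicer line alone (0.87, adjusted p = 0.0651).

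miR-136 was not called on either arm in Dicer KO. miR-136-3p stood at 128 and 89.5 CPM in Dicer KO, against 67.5 and 70.9 CPM in Dicer WT, with no overlap (0.65 ± 0.23, edgeR adjusted p = 0.0610). It was called on library totals (0.89, adjusted p = 0.0244). miR-136-5p stood at 12.97 and 15.7 CPM in Dicer KO, against 2.79 and 8.11 CPM in Dicer WT (1.37 ± 0.51, edgeR adjusted p = 0.0665), and it too was called on library totals (1.61, adjusted p = 0.0378).

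miR-431-5p and miR-433-3p come from the hairpins nearest the 3′ end of the Rtl1 coding sequence, and the Dicer KO and Dicer WT libraries of both overlapped. miR-431-5p, which targets Pax7 in mouse muscle satellite cells, stood at 310.3 and 626 CPM in Dicer KO, against 331 and 348 CPM in Dicer WT (0.46 ± 0.30, edgeR adjusted p = 0.255). miR-433-3p, which targets FGF20 in human cells, stood at 393 and 652 CPM in Dicer KO, against 433 and 317 CPM in Dicer WT (0.48 ± 0.30, edgeR adjusted p = 0.247). For both, Dicer KO replicate 2 lay above both wild types and Dicer KO replicate 1 did not.

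Of the 2 miRNAs outside Rtl1, miR-337-3p stood at 11.97 and 10.9 CPM in Dicer KO, against 5.58 and 3.14 CPM in Dicer WT (1.39 ± 0.39, edgeR adjusted p = 0.0237). These levels rest on 12 and 9 reads in Dicer KO and 20 and 12 reads in Dicer WT, and the call was not made by DESeq2 (1.49, adjusted p = 0.108). It was lost without either Dicer KO library or Dicer WT replicate 2 (adjusted p = 0.0663 to 0.121), and without the filter, in reads with no added base, in a fit of the Dicer line alone and with the libraries thinned to the smallest (adjusted p = 0.0584 to 0.302). miR-337-5p stood at 5.99 and 15.7 CPM in Dicer KO, against 7.26 and 4.97 CPM in Dicer WT, and the groups overlapped (0.79 ± 0.47, edgeR adjusted p = 0.223).

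Markers of other cells moved with the Dicer KO comparison. All 4 vessel miRNAs (miR-126a-3p, miR-126a-5p, miR-143-3p and miR-145a-5p) were called higher, and they summed to 2.30% and 2.77% of miRNA reads in Dicer KO, against 0.847% and 0.695% in Dicer WT. Of 4 blood miRNAs (miR-451a, miR-486-5p, miR-144-3p and miR-223-3p) 3 were called higher, with sums of 0.959% and 1.03% in Dicer KO, against 0.388% and 0.293% in Dicer WT. Both markers of tissue behind the forebrain (median 1.80) and 1 of 5 choroid plexus markers were called higher. Of 2 mesenchymal markers (median 1.44) 0 were called by edgeR or DESeq2, and 0 had an unadjusted p below 0.05 in edgeR. The 3 neural miRNAs had 2 called lower. The part of these cells in the rise of the 10 miRNAs was not tested.

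**Figure D3:**
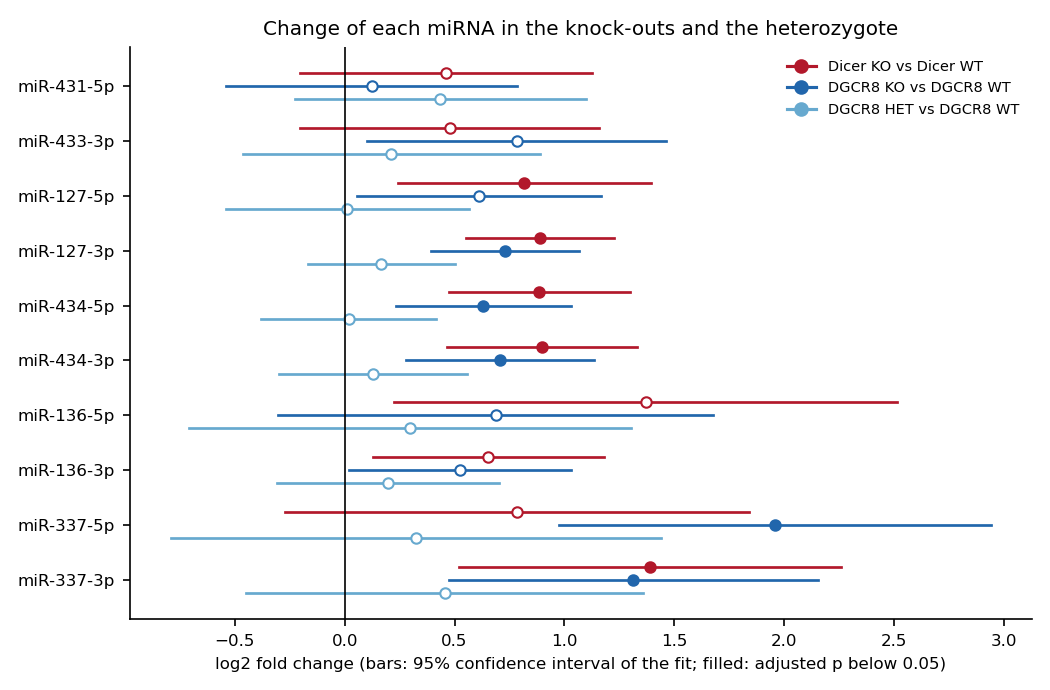
Log2 fold change of each of the 10 miRNAs for Dicer KO against Dicer WT, DGCR8 KO against DGCR8 WT and DGCR8 HET against DGCR8 WT, with the 95% confidence interval of the edgeR fit. Filled points have an adjusted p below 0.05. Each knock-out has 5 filled points, all right of 0, and the heterozygote has 0.

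For the nuclear step, DGCR8 KO was set against DGCR8 WT. Again 5 of the 10 rose and 0 fell: miR-127-3p, miR-434-3p, miR-434-5p, miR-337-3p and miR-337-5p. Of all 557 miRNAs, 20.6% were called, 8.8% as higher and 11.8% as lower. The median log2 fold change of the 10 was 0.70, beside 0.0167 over all tested miRNAs, and all 10 lay above 0. But scaled to vessel and blood miRNAs 9 lay above 0 with 0 called. Their median was then 0.38, beside -0.30 over all tested miRNAs. Leaving out any 1 of DGCR8 KO replicate 1, DGCR8 KO replicate 2, DGCR8 WT replicate 1 or DGCR8 WT replicate 2 left 0 of the 10 called, and 13, 8, 19 and 5 of the 557 miRNAs. Without DGCR8 HET replicate 1 only the call of miR-434-5p was lost (0.63, adjusted p = 0.0515).

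miR-127-3p stood at 19670.5 and 21108 CPM in DGCR8 KO and at 13248 and 14382 CPM in DGCR8 HET, against 13204 and 11403 CPM in DGCR8 WT. The knock-outs lay above all others, and the rise over DGCR8 WT was 0.73 ± 0.15 (edgeR adjusted p = 0.0153). miR-127-5p stood at 169 and 137 CPM in DGCR8 KO and at 113 and 88.9 CPM in DGCR8 HET, against 117 and 83.4 CPM in DGCR8 WT. Its knock-outs also lay above the rest, but it was not called (0.61 ± 0.25, edgeR adjusted p = 0.108).

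miR-434-3p stood at 12889 and 11688 CPM in DGCR8 KO and at 9238 and 7217 CPM in DGCR8 HET, against 7915 and 7144 CPM in DGCR8 WT (0.71 ± 0.19 for the knock-out, edgeR adjusted p = 0.0358). miR-434-5p stood at 234 and 215 CPM in DGCR8 KO and at 149 and 144 CPM in DGCR8 HET, against 147 and 142 CPM in DGCR8 WT (0.63 ± 0.18, edgeR adjusted p = 0.0392). Without the filter on low counts miR-434-5p was not called (0.67, adjusted p = 0.108). For both arms the DGCR8 HET and DGCR8 WT libraries were mixed and the knock-outs stood apart.

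Of miR-136, miR-136-3p stood at 218 and 169 CPM in DGCR8 KO and at 173 and 135 CPM in DGCR8 HET, against 134 and 135.8 CPM in DGCR8 WT (0.52 ± 0.22, edgeR adjusted p = 0.126). miR-136-5p stood at 21.6 and 12.9 CPM in DGCR8 KO and at 11.8 and 14.8 CPM in DGCR8 HET, against 9.94 and 11.7 CPM in DGCR8 WT (0.69 ± 0.44, edgeR adjusted p = 0.285). The knock-outs of both arms lay above DGCR8 WT, by less than the test required, and overlapped DGCR8 HET.

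miR-433-3p stood at 861 and 595 CPM in DGCR8 KO and at 573 and 408 CPM in DGCR8 HET, against 459 and 388 CPM in DGCR8 WT (0.78 ± 0.30, edgeR adjusted p = 0.0938). DESeq2 called it (0.88, adjusted p = 0.0240), and so did the fit without TMM (1.20, adjusted p = 0.0328). miR-431-5p stood at 424 and 337 CPM in DGCR8 KO and at 530.1 and 416 CPM in DGCR8 HET, against 349 and 350.5 CPM in DGCR8 WT. Its DGCR8 KO and DGCR8 WT libraries overlapped (0.12 ± 0.29, edgeR adjusted p = 0.785).

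The largest fold change of the 10 in DGCR8 KO was that of miR-337-5p, at 17.7 and 13.4 CPM in DGCR8 KO and 5.66 and 4.36 CPM in DGCR8 HET, against 4.77 and 3.16 CPM in DGCR8 WT (1.96 ± 0.44, edgeR adjusted p = 0.0199). It rests on 46 and 25 reads in DGCR8 KO and 12 and 7 reads in DGCR8 WT. miR-337-3p stood at 10.8 and 8.07 CPM in DGCR8 KO and at 5.66 and 4.796 CPM in DGCR8 HET, against 3.97 and 3.61 CPM in DGCR8 WT (1.31 ± 0.37, edgeR adjusted p = 0.0398). As in Dicer KO, the call of miR-337-3p was not made by DESeq2 (1.42, adjusted p = 0.144), and it was lost in reads with no added base (2.47, adjusted p = 0.0687) and when thinned (1.23, adjusted p = 0.258).

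Markers of other cells were called here too. Of the 4 vessel miRNAs 1 was called higher, with sums of 0.582% and 0.573% of miRNA reads in DGCR8 KO, against 0.3195% and 0.329% in DGCR8 WT. Of the 4 blood miRNAs 0 were called by edgeR, 1 had an unadjusted p below 0.05 and DESeq2 called 1, with sums of 0.453% and 0.35% in DGCR8 KO, against 0.269% and 0.263% in DGCR8 WT. Of the 5 choroid plexus markers 1 was called higher by edgeR and 0 were called by DESeq2. They summed to 0.322% and 0.126% in DGCR8 KO, against 0.124% and 0.130% in DGCR8 WT, and the groups overlapped. Of the 3 neural miRNAs 2 were called lower. Neither the 2 mesenchymal markers (median 1.71) nor the 2 markers of tissue behind the forebrain (median 1.09) were called by edgeR or DESeq2, and 0 of these 4 had an unadjusted p below 0.05 in edgeR. Their part in the rise of the 10 miRNAs was not tested.

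None of the 10 was called between DGCR8 HET and DGCR8 WT in edgeR or DESeq2. By edgeR 0 of the 10 and 0 of 557 miRNAs (0%) were called, 0 of the 10 had an unadjusted p below 0.05, and DESeq2 called 0 of the 10. The median log2 fold change of the 10 was 0.20, beside 0.0212 over all tested miRNAs. Scaled to vessel and blood miRNAs it was -0.0225, beside -0.255 over all tested miRNAs. The libraries of miR-127-3p, miR-136-5p, miR-337-3p and miR-431-5p did not overlap, with DGCR8 HET the higher. The share of all miRNAs without overlap was not counted. With 2 libraries a side the smallest exact two-sided permutation p is 0.333, so this lack of overlap shows no rise. For miR-127-3p the difference was 0.17 ± 0.15, with a 95% interval of -0.17 to 0.50, and the highest of the 10 was 0.46 ± 0.40 for miR-337-3p (edgeR adjusted p = 0.993). Markers of other cells were not called by edgeR either. Its unadjusted p was below 0.05 for both mesenchymal markers (median 3.31) and 1 of 2 of tissue behind the forebrain (median 1.53). The same held for 2 of 4 vessel (median 0.65), 1 of 4 blood (median 0.77) and 0 of 5 choroid plexus markers (median 1.01). The part of these cells was not tested.

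DGCR8 KO against DGCR8 HET gave 2 rises and 0 falls among the 10, where 8.62% of all miRNAs were called, 1.97% as higher and 6.64% as lower. miR-127-3p rose by 0.56 ± 0.15 (edgeR adjusted p = 0.0494) and miR-337-5p by 1.64 ± 0.42 (edgeR adjusted p = 0.0435). The median of the 10 was 0.57, beside -0.0715 over all tested miRNAs, and miR-431-5p lay below 0, at -0.31 ± 0.29. The 2 calls were lost without either DGCR8 KO, either DGCR8 HET or either DGCR8 WT library. Of the 3 neural miRNAs 2 were called lower. Markers of other cells were not called by edgeR, with medians of -1.60 for mesenchyme, -0.88 for choroid plexus and -0.44 for tissue behind the forebrain. For vessel and blood the medians were -0.17 and 0.0614. The part of these cells was not tested.

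The 2 knock-out effects were also set against each other, as that of DGCR8 KO minus that of Dicer KO. Of the 10 miRNAs 0 differed by edgeR, 0 had an unadjusted p below 0.05 and 0 were called by DESeq2, where 2.15% of all miRNAs were called by edgeR, 0.898% as higher and 1.26% as lower. For miR-127-3p the difference was -0.16 ± 0.21, with a 95% interval of -0.63 to 0.31, and for miR-434-3p it was -0.19 ± 0.27, with an interval of -0.80 to 0.41. The difference farthest from 0 was that of miR-337-5p, at 1.17 ± 0.64 (edgeR adjusted p = 0.354), with an interval of -0.26 to 2.61. These intervals do not show that the effects were alike. Scaled to vessel and blood miRNAs, all 10 differences lay above 0, with a median of 0.95 in place of -0.18. The median over all tested miRNAs was then 1.14 in place of 0.0172, so the whole scale moved.

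The wild types of the 2 lines differed for some of the 10. In DGCR8 WT against Dicer WT 3 were higher and 0 lower, where 7.54% of all miRNAs were called, 2.69% as higher and 4.85% as lower, and the median over all miRNAs was -0.13. miR-136-3p was higher by 0.96 ± 0.23 (edgeR adjusted p = 0.0334), miR-434-5p by 0.89 ± 0.18 (edgeR adjusted p = 0.0207) and miR-434-3p by 0.78 ± 0.19 (edgeR adjusted p = 0.0388). miR-127-5p stood at 117 and 83.4 CPM in DGCR8 WT, against 59.2 and 47.9 CPM in Dicer WT, and was not called (0.90 ± 0.25, edgeR adjusted p = 0.0576). miR-127-3p overlapped between the wild types (-0.15 ± 0.15, edgeR adjusted p = 0.562). Scaled to vessel and blood miRNAs it was called higher in DGCR8 WT (0.88, edgeR adjusted p = 0.0264). On that scale the median over all tested miRNAs was 0.88 too, and 43.3% of them were called. All 3 calls were lost without any 1 of the 4 wild-type libraries, that of miR-434-5p when thinned (0.67, adjusted p = 0.0861), and that of miR-434-3p without either DGCR8 KO library (adjusted p = 0.062 and 0.0621). The 4 vessel miRNAs were called lower in DGCR8 WT, at 0.3195% and 0.329% of miRNA reads against 0.847% and 0.695% in Dicer WT. Also called lower were 2 of 4 blood, 1 of 5 choroid plexus and both mesenchymal miRNAs (median -5.25). Of the 2 markers of tissue behind the forebrain (median -2.46) 1 was called lower. Of the 3 neural miRNAs 1 was called higher and 1 lower. The part of these cells in the 3 calls was not tested. The line and any run or preparation that came with it cannot be told apart.

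The arms of a hairpin give a measure that does not depend on library scaling, since both are read in the same library. The Mir127 hairpin is printed to show both arms, miR-127-5p first and miR-127-3p second, in capitals (RefSeq, GRCm38.p6, plus strand).
Mir127: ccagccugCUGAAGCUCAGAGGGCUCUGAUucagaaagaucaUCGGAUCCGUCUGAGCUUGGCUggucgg
For each miR-127-5p read there were 290.01 and 249 miR-127-3p reads in Dicer KO, against 263 and 245 in Dicer WT. There were 116 and 155 in DGCR8 KO and 117 and 162 in DGCR8 HET, against 113 and 137 in DGCR8 WT. Every library of the DGCR8 line lay below every library of the Dicer line, and within each line the groups overlapped.

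The arm ratio was tested with limma on log2 of 5p over 3p reads for the 58 hairpins with at least 20 reads on each arm in every library. Of the hairpins with both arms among the 10, miR-127 and miR-434 qualified, while miR-136 and miR-337 had too few reads. In Dicer KO against Dicer WT neither was called by limma, with 10.3% of the 58 hairpins called (miR-127 -0.0774 ± 0.23, adjusted p = 0.794). In DGCR8 KO against DGCR8 WT neither was called either (miR-127 -0.11 ± 0.23, limma adjusted p = 0.805), with 0 of 58 hairpins called (0%) and 10 at an unadjusted p below 0.05. Neither miR-127 nor miR-434 reached an unadjusted p below 0.05 in these comparisons, where no other tool was run. In DGCR8 WT against Dicer WT the log2 ratio of miR-127 was higher by 1.03 ± 0.23 (limma adjusted p = 0.0192), where 8.62% of the 58 hairpins were called. The call was lost without any 1 of the 4 wild-type libraries (0.89 to 1.17, adjusted p = 0.0694 to 0.293). miR-434 had 46.7 and 66.03 3p reads per 5p read in Dicer KO, against 52.9 and 59.95 in Dicer WT, and 55.2 and 54.5 in DGCR8 KO, against 53.7 and 50.3 in DGCR8 WT. Its ratio was not called between the wild types (0.12 ± 0.21, limma adjusted p = 0.678).

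The hairpins of miR-431 and miR-433, with 1 arm each among the 10, also met the minimum, and their ratios were added after the others had been seen. miR-431 had 0.48 and 0.472 3p reads per 5p read in DGCR8 KO and 0.228 and 0.232 in DGCR8 HET, against 0.353 and 0.284 in DGCR8 WT. The 3 groups did not overlap, with the share of the 3p arm highest in DGCR8 KO and lowest in DGCR8 HET. How many of the 58 hairpins separated in this way was not counted. Between DGCR8 HET and DGCR8 WT the log2 ratio was not called (0.46 ± 0.24, limma adjusted p = 0.855). The log2 ratio of 5p over 3p was lower in DGCR8 KO than in DGCR8 HET (-1.05 ± 0.24, limma adjusted p = 0.0226), where 3.45% of the 58 hairpins were called. The call was lost without either Dicer WT library, either DGCR8 KO library, either DGCR8 HET library or DGCR8 WT replicate 1 (adjusted p = 0.0785 to 0.182), and with a minimum of 100 reads miR-431 was not tested. Against DGCR8 WT it was not called (-0.59 ± 0.24, limma adjusted p = 0.166, unadjusted p = 0.0286), but was without Dicer KO replicate 1 (adjusted p = 0.0237) or Dicer KO replicate 2 (adjusted p = 0.0268). In the Dicer line miR-431 had 0.299 and 0.158 3p reads per 5p read in Dicer KO, against 0.201 and 0.176 in Dicer WT, and the groups overlapped (-0.21 ± 0.24, limma adjusted p = 0.558). Without Dicer KO replicate 2 this was called (-0.67, adjusted p = 0.0188), and without Dicer KO replicate 1 it turned round (0.24, adjusted p = 0.277). Between DGCR8 WT and Dicer WT the miR-431 ratio was not called (-0.75 ± 0.24, limma adjusted p = 0.0745), but was without Dicer KO replicate 1 (adjusted p = 0.00917) or Dicer KO replicate 2 (adjusted p = 0.00423). The ratio of miR-433 was called in neither knock-out against its wild type (limma adjusted p = 0.322 for Dicer KO and 0.771 for DGCR8 KO).

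**Figure D4:**
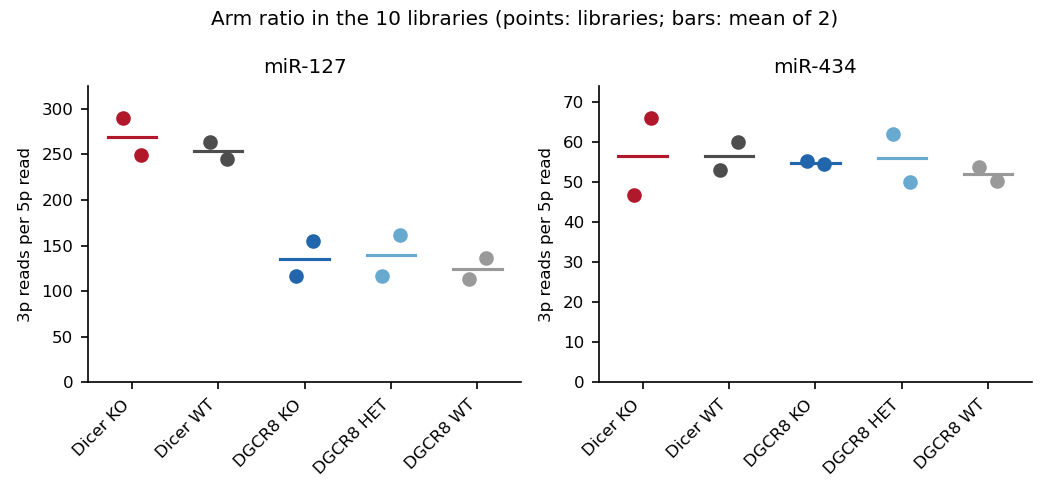
Number of 3p reads per 5p read (a linear axis from 0) of the hairpins miR-127 and miR-434 in the 5 groups. Points are libraries and bars are means of 2. For miR-127 the Dicer line lies at 245 to 290.01 and the DGCR8 line at 113 to 162, while all groups of miR-434 lie between 46.7 and 66.03.

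The 3′ ends differed from miRNA to miRNA. An added base was called matching where every added base equals the next base of the hairpin, and non-matching where the first does not. Over the 10 libraries, 98.7% of miR-434-3p reads and 97.6% of miR-136-3p reads had no added base. In contrast, 37.4% of miR-127-3p reads carried a non-matching addition. Of miR-127-5p reads 65.2% carried a matching addition, so most of its reads were the RefSeq sequence plus the next base of the hairpin. Likewise 42.9% of miR-136-5p reads carried a matching addition.

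The most frequent forms of miR-127 are shown with the added bases in capitals, since they carry these shares.
miR-127-3p with U: ucggauccgucugagcuuggcuU
miR-127-3p with AU: ucggauccgucugagcuuggcuAU
miR-127-3p with UU: ucggauccgucugagcuuggcuUU
miR-127-5p with U: cugaagcucagagggcucugauU
The hairpin continues with GGU after miR-127-3p and with UCA after miR-127-5p. Of miR-127-3p reads 11.1% ended in the single U, 7.21% in AU and 5.76% in UU, while 65.05% of miR-127-5p reads ended in the single U, which matches.

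The miR-337 arms also had small shares of reads without an addition, though on few reads. Of 177 miR-337-5p reads 20.3% had none, and 55.9% carried the pair of bases GA, of which the first matches the hairpin and the second does not.
miR-337-5p with GA: cggcgucaugcaggaguugauuGA
Of 138 miR-337-3p reads 28.3% had none and 63.04% carried a non-matching addition. For miR-431-5p 85.6% of reads had none, for miR-433-3p 80.9% and for miR-434-5p 93.7%.

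The share of reads with any addition was tested with limma on log2 of reads with over reads without an addition, for the 235 miRNAs with at least 50 reads in every library, 7 of the 10 among them. In Dicer KO against Dicer WT 2 of the 7 were higher and 0 lower, where 34% of the 235 miRNAs were called and their median was 0.27. Additions were on 45.07% and 49.5% of miR-127-3p reads in Dicer KO, against 40.6% and 40.2% in Dicer WT (0.41 ± 0.12, limma adjusted p = 0.0344). All miRNAs together had additions on 42.9% and 47.5% of reads in Dicer KO, against 41.8% and 38.9% in Dicer WT. The miR-127-3p call was lost without Dicer KO replicate 2, either Dicer WT library, either DGCR8 KO library or either DGCR8 WT library (adjusted p = 0.0537 to 0.116), and when only additions with at least 1 base off the hairpin were counted (0.41, adjusted p = 0.0514), where 24.2% of 190 miRNAs were called.

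The other call, miR-136-3p, rests on very few reads. Additions were on 6 of 128 and 3 of 74 reads in Dicer KO, against 4 of 242 and 3 of 271 in Dicer WT (1.70 ± 0.24, limma adjusted p = 0.00188). The shares were 4.69% and 4.05% in Dicer KO, with 95% Wilson intervals of 2.17% to 9.85% and 1.39% to 11.3%, against 1.65% and 1.11% in Dicer WT, with intervals of 0.645% to 4.17% and 0.377% to 3.204%. The intervals, which cover counting error only, overlap. With at least 10 reads with and 10 without an addition required, miR-136-3p was not among the 191 miRNAs tested.

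In DGCR8 KO against DGCR8 WT 0 of the 7 and 0 of the 235 miRNAs (0%) were called by limma, with 1 of the 7 and 34 of the 235 at an unadjusted p below 0.05, and no other tool was run. Additions were on 34.9% and 34.8% of miR-127-3p reads in DGCR8 KO and on 34.5% and 37.99% in DGCR8 HET, against 34.3% and 33.5% in DGCR8 WT. Both DGCR8 KO shares lay above both DGCR8 WT shares, and the DGCR8 HET libraries lay on either side of DGCR8 KO.

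**Figure D5:**
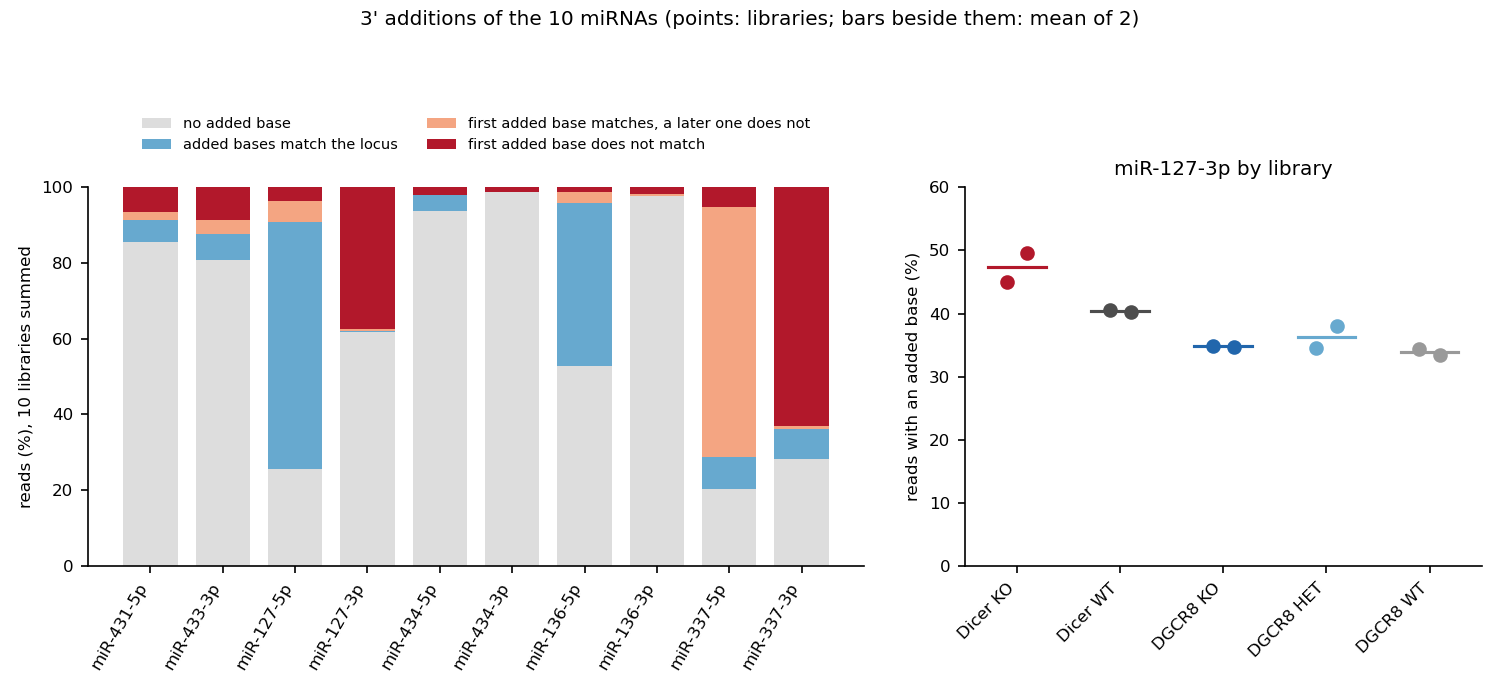
Left, share of the reads of each miRNA, summed over 10 libraries, by the kind of 3′ addition (stacked bars, percent). Right, share of miR-127-3p reads with an added base in the 5 groups (percent), with points for libraries and bars for the mean of 2. Dicer KO lies at 45.07% and 49.5%, above Dicer WT at 40.6% and 40.2%, and the DGCR8 line lies between 33.5% and 37.99%.

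How closely the 10 miRNAs followed each other across libraries differed from pair to pair. Over the 45 pairs, Pearson's r of log2 CPM across the 10 libraries ran from 0.118 (miR-431-5p with miR-136-3p) to 0.98 (miR-127-5p with miR-434-3p), with a median of 0.56. miR-127-3p had an r of 0.95 with miR-337-3p and of 0.41 with miR-127-5p from its own hairpin. These are descriptions over libraries that share a group and a line, not over independent samples. The r of other pairs of miRNAs was not computed, and counting error lowers r for the miRNAs with few reads.

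Outside the 10, the miRNAs whose profile was most like the mean centred log2 CPM of the group were miR-369-5p (r = 0.98), miR-382-5p (0.98), miR-300-3p (0.97), miR-3071-3p (0.96) and miR-323-3p (0.95), over 10 libraries. All 5 come from 12qF1. Among them miR-3071-3p, from the hairpin opposite to Mir136, stood at 99.8 and 106 CPM in Dicer KO, against 39.1 and 30.6 CPM in Dicer WT (1.56 ± 0.21, edgeR adjusted p = 8.29e-04). In the DGCR8 line it stood at 135 and 132 CPM in DGCR8 KO, against 68.4 and 61.3 CPM in DGCR8 WT (1.04 ± 0.20, edgeR adjusted p = 0.0134). Its overlap partner miR-136-5p was not called in either comparison, and the difference between these miRNAs was not tested.

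The remaining arms of the Rtl1 hairpins gave further values of the same kind. miR-431-3p, from the hairpin of miR-431-5p, stood at 92.8 and 99.2 CPM in Dicer KO, against 66.7 and 61.2 CPM in Dicer WT (0.58 ± 0.22, edgeR adjusted p = 0.0665). In the DGCR8 line it stood at 203 and 159 CPM in DGCR8 KO, against 123 and 99.7 CPM in DGCR8 WT (0.70 ± 0.21, edgeR adjusted p = 0.0444). miR-431-3p was therefore called in DGCR8 KO, where miR-431-5p was at 0.12 and not called. The arm ratio, which sets 1 arm against the other, was not called there (limma adjusted p = 0.166). miR-433-5p was not called in Dicer KO (0.68 ± 0.29, edgeR adjusted p = 0.105) or in DGCR8 KO (0.88 ± 0.28, edgeR adjusted p = 0.0558).

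The neighbouring miRNAs of the region also had medians above 0 in both knock-outs after TMM scaling. But scaled to vessel and blood miRNAs their Dicer KO medians lay below 0, at -0.71 for the proximal and -0.64 for the distal group. The median over all tested miRNAs was then -1.44. Of 11 other proximal 12qF1 miRNAs tested, 2 rose and 0 fell in Dicer KO (median 0.73) and 3 rose and 0 fell in DGCR8 KO (median 0.98). Of 57 distal 12qF1 miRNAs, 24 rose and 0 fell in Dicer KO (median 0.79) and 19 rose and 0 fell in DGCR8 KO (median 0.78). Beside these counts, 14.9% of all 557 miRNAs were called higher in Dicer KO and 8.8% in DGCR8 KO. The 4 most abundant distal miRNAs in Dicer KO were at 0.47 ± 0.19 for miR-410-3p (not called, edgeR adjusted p = 0.0946), 1.16 ± 0.17 for miR-411-5p (edgeR adjusted p = 0.00152), 1.16 ± 0.18 for miR-381-3p (edgeR adjusted p = 0.00172) and 0.97 ± 0.21 for miR-541-5p (edgeR adjusted p = 0.00827). In DGCR8 KO all 4 were called higher, at 0.62 to 0.85. The medians of the 10 miRNAs, 0.85 in Dicer KO and 0.70 in DGCR8 KO, thus lay close to those of the distal group, and the difference between the lists was not tested.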

How the data were processed

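Small RNA libraries were prepared from 1000 ng of total RNA with a TruSeq kit, per the labels' protocols, and the submitters' processing notes name Bowtie and GRCm38. The sources used here do not give the aligner version, its mismatch setting or how reads with several matches were treated. The authors deposited raw read counts per miRNA name and 3′ suffix. These counts were summed per name (1 row name occurs more than once) with Python 3.11.15. In R 4.3.3, edgeR 4.0.16 (filterByExpr on the groups, with 10 as minimum count and 15 as minimum total, TMM scaling, quasi-likelihood fit) was run over all 10 libraries with 1 mean per group, giving a biological coefficient of variation of 0.23. Arm ratios and addition shares used limma 3.58.1 with a trend and a pseudocount of 0.5. DESeq2 1.42.0 was an alternative. The edgeR and limma fits were run on simulated data with the same spread for every miRNA or hairpin. That does not show how the fits hold where the spread is uneven, and no result here rests on it. TMM sets each change against the bulk of the miRNAs. No spike-in is named in the sources used here, and adapter ligation differs between sequences, so levels of different miRNAs compare less safely than 1 miRNA between libraries.

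Per the series' design text each genotype has 2 mice, taken here as separate samples. Same-numbered mice share only a number. The members and lists were chosen with earlier results of these data known. Named besides the 10 miRNAs were the other arms of their hairpins, the 5 miRNAs with the most similar profile and the 4 most abundant distal 12qF1 miRNAs. Other lists appear as counts and medians. Depth was 800623 to 4486774 miRNA reads, so 1 read was worth 0.223 to 1.25 CPM before scaling. P-values are two-sided.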

Additional observations from a re-analysis of the deposited data

Results flagged for a closer look

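The share of miR-136-3p reads with an added 3′ base differed between the knock-out effects of the 2 lines. The effect of DGCR8 KO minus that of Dicer KO was -1.69 ± 0.34 on the log2 scale (limma adjusted p = 0.0194), where 11.5% of the 235 miRNAs were called. Additions were on 17 of 567 and 6 of 314 reads in DGCR8 KO, against 8 of 336 and 7 of 301 in DGCR8 WT, and on 6 of 128 and 3 of 74 reads in Dicer KO, against 4 of 242 and 3 of 271 in Dicer WT. The lower bound of the Wilson interval in each Dicer KO library, 2.17% and 1.39%, lies below the upper bound in each Dicer WT library, 4.17% and 3.204%. The cause of the difference was not tested.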

How the results depend on the processing

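The main counts of miRNAs called among the 10 were 5 for Dicer KO and 5 for DGCR8 KO against their wild types, 2 for DGCR8 KO against DGCR8 HET, 0 for DGCR8 HET, 0 for the difference of effects and 3 for the wild types. For Dicer KO the count was 2 without the filter, 2 with the lines fitted apart, 2 (both lower) scaled to vessel and blood miRNAs, and 2 to 5 leaving out 1 library, with 2 without Dicer WT replicate 2. For DGCR8 KO it was 8 on library totals, 3 in reads with no added base, 0 scaled to vessel and blood miRNAs and 0 to 7 leaving out 1 library. For DGCR8 KO against DGCR8 HET it was 5 on library totals, 4 with DESeq2's size factors, 4 with the lines fitted apart, 0 scaled to vessel and blood miRNAs and 0 to 4 leaving out 1 library. The difference of effects had 1 call scaled to vessel and blood miRNAs, miR-337-5p, named after its value was seen, and the wild types had 8, or 0 to 4 leaving out 1 library. Arm ratios between the wild types had 1 call, 0 at a minimum of 100 reads, which leaves miR-127 out, and 0 to 1 leaving out 1 library. Addition shares in Dicer KO had 2, and 1 to 2 leaving out 1 library.

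Scaled to vessel and blood miRNAs, an alternative chosen after seeing the data, the median of all miRNAs moved to -1.44 in Dicer KO, and the changes were -0.54 for miR-127-3p, -0.62 for miR-127-5p, -0.0142 for miR-337-3p, -1.02 for miR-431-5p, -0.97 for miR-433-3p, -0.55 for miR-434-3p and -0.54 for miR-434-5p. Between the wild types miR-127-3p turned to 0.88, where the median of all miRNAs was 0.88 too. Counted only on additions with a base off the hairpin, chosen likewise, the addition share of miR-434-5p in Dicer KO turned to -1.31 (limma adjusted p = 0.0312). The cause was not tested. Of all calls, 48.3% were higher in Dicer KO and 42.6% in DGCR8 KO. On library totals, where the medians lay at 0.22 and 0.43, these were 67.02% and 88.2%. With DESeq2's size factors they were 57.7% and 56.5%, and scaled to vessel and blood miRNAs 1.14% and 5.41%. Over all miRNAs, Dicer KO had 172 calls, 111 with the lines fitted apart, 351 scaled to vessel and blood miRNAs and 97 to 188 leaving out 1 library. DGCR8 KO had 115, 72 when all libraries were thinned to the smallest, 37 scaled to vessel and blood miRNAs and 5 to 160 leaving out 1 library. DGCR8 KO against DGCR8 HET had 48, and 12 to 97 under other settings or 5 to 100 leaving out 1 library. The difference of effects had 12, and 5 to 99 or 0 to 49. The wild types had 42, 93 without the filter, 241 scaled to vessel and blood miRNAs and 1 to 76 leaving out 1 library. DGCR8 HET had 0, 18 without the filter, 6 scaled to vessel and blood miRNAs and 0 to 13 leaving out 1 library.

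Replicate numbers deviated together weakly or not at all within a line (r = 0.0608 for Dicer KO with Dicer WT and 0.17 for DGCR8 KO with DGCR8 WT). For DGCR8 HET r was 0.0348 with DGCR8 WT and -0.0500 with DGCR8 KO. Across the lines r ran from -0.21 (Dicer WT with DGCR8 KO) to 0.37 (Dicer WT with DGCR8 HET). With the replicate number as a block the count was 1 for DGCR8 KO against DGCR8 HET and 4 for the wild types, and it stayed at 5 for Dicer KO, 5 for DGCR8 KO, 0 for DGCR8 HET and 0 for the difference of effects. The counts for the arm ratios of miR-127 and miR-434 and for addition shares were the same with the block, and the miR-431 ratio was then called between the wild types (-0.75, limma adjusted p = 0.0263). Depth limits miR-337 and miR-136-5p, which had 6 to 56 reads per library.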
